A study of Mus musculus with 14 samples.

Results

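The genes described here are the receptors, ligands and receptor-cleaving enzymes of the Notch pathway in sorted mouse muscle satellite cells, the stem cells that repair muscle fibres. They are the 4 receptors Notch1, Notch2, Notch3 and Notch4, the ligands Jag1, Jag2, Dll1 and Dll4, and the membrane proteases Adam10 and Adam17. All non-control probes that carry 1 of these 10 names on the array were taken, which gave 13 of 55681 probes and 10 of 36406 gene names. Satellite cells had been sorted from dissociated muscle by flow cytometry on integrin α7 and CD34, after cells with CD31, CD45, CD11b or Sca1 on their surface had been gated out. Whole-transcriptome-amplified cDNA of each sample was hybridised to its own Cy3 array. The 14 arrays were 3 Young (2 or 3 months old), 3 Old (22, 23 and 24 months) and 2 Geriatric (30 and 29 months, numbered 1 and 3) samples of C57BL/6 mice, and 3 samples each of SAMP8 and SAMR1 mice at 12 months, a senescence-prone strain and its senescence-resistant counterpart. The series' design text describes the muscle as homeostatic, and the labels give no treatment, injury or transgene. They call the samples biological replicates but do not say whether mice were pooled, and strain, age and SAM group differ together between the C57BL/6 and the SAM arrays.

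Notch signalling passes between touching cells. A Jagged or Delta-like ligand on a sending cell pulls on a Notch receptor on its neighbour, Adam10 or Adam17 then cleaves the receptor outside the membrane, and γ-secretase releases its intracellular part, which joins the DNA-binding protein Rbpj and a Mastermind coactivator to switch on Hes and Hey genes. In adult muscle this pathway is known to keep satellite cells quiescent, and Notch1, Notch2 and Notch3 are the receptors known from these cells. Notch4 and Dll4 are best known from the endothelium of blood vessels, and Jag1 from vessels and from many sending cells.

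Levels below are log2 values of the processed signal minus the 75th percentile of the same array, so a level of 0 equals that percentile and a difference of 1 is a doubling. Because each probe has its own brightness, levels are compared between arrays for 1 probe and never between genes. All 13 probes passed the filter on dim probes (a signal well above background on 2 or more arrays within 1 group), 181 of the 182 values were well above background, and none was saturated. The exception was Jag2 on Old 3. Across all probes 77.1% to 88.8% were well above background on an array. On all 14 arrays 10 of 10 listed satellite cell markers were well above background. Group means of Pax7, the transcription factor that defines these cells, lay between 3.54 and 4.23. A signal above background does not establish identity or purity, because most probes reach it. Itgam, which encodes the CD11b that the sort gated out, was also well above background on all arrays (levels 7.42 to 8.70).

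Sex-linked transcripts went against the labels, which call all mice male. The Y-linked genes Ddx3y, Uty and Kdm5d were well above background on every Geriatric, SAMP8 and SAMR1 array and on 0 of the 6 Young and Old arrays. Xist, the X-inactivation RNA, had a mean level of 5.69 in Young and 5.26 in Old samples and was not well above background on either Geriatric array. On the SAM arrays it was far lower than in Young and Old cells but well above background on 3 of 3 SAMP8 arrays (mean −4.14) and 1 of 3 SAMR1 arrays (mean −6.76). The first principal component over all genes (46.3% of the variance) divided the arrays in the same way. The comparisons of Geriatric with Young and with Old cells cross this division, so age and the division cannot be told apart in them, whereas Old against Young and SAMP8 against SAMR1 lie within it.

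Notch1, Notch2 and Adam17 are each read by a pair of probes, and the results depend on which oligonucleotide is read, so the pairs are shown with the Jag1 probe. Sequences are those of the array's oligonucleotides in the sense of the transcript, from the deposited files, with mm9 coordinates. For the first probe of Notch1 and the second of Notch2 all 60 bases are given, and for the others the first 30. For Adam17, capitals mark bases that both printed stretches share. An exon annotation of mm9 was not used here.
Notch1, brighter probe (chr2:26319440-26319499, minus strand): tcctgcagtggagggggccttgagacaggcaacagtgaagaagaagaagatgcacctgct
Notch1, dimmer probe (chr2:26314630-26314689, minus strand): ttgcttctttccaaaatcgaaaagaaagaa
Notch2, brighter probe (chr3:97953914-97953973, plus strand): ccacttgaagtcttgcatagaaatgaacca
Notch2, dimmer probe (chr3:97951233-97951292, plus strand): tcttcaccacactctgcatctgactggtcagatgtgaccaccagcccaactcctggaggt
Adam17, brighter probe (chr12:21329370-21329429, minus strand): TGTGAATTACTAATAAAGCTACgcacatgt
Adam17, dimmer probe (chr12:21329378-21329437, minus strand): ttgatgtcTGTGAATTACTAATAAAGCTAC
Jag1, single probe (chr2:136907433-136907492, minus strand): ggagtattctcataagctagttgaatactt
The Notch1 probes lie 4810 bases apart on the genome and the Notch2 probes 2681 bases apart, so each pair reads separate stretches of its transcript. The Adam17 probes share 52 of their 60 bases, offset by 8, and are close to a repeat measurement of 1 site. In the tests over all genes each gene is represented by its brighter probe.

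Tested over all 32871 genes, 2 of the 10 members rose and none fell in any comparison. Jag1 rose in Geriatric cells, relative to Young cells and to Old cells, and Adam17 rose in Geriatric relative to Old cells. A call is an adjusted p under 0.05 from limma with Benjamini-Hochberg adjustment over all genes. In Geriatric against Young cells 1 of 10 members was called (4.19% of all genes), and in Geriatric against Old cells 2 of 10 (19.9% of all genes), a share close to that of all genes. In Old against Young cells 0 members were called with limma (1.44% of all genes were called). An unadjusted p under 0.05 was found for 2 members, beside 5551 of all 32871 genes. In SAMP8 against SAMR1 cells 0 were called (0.45% of all genes called) and 0 had an unadjusted p under 0.05 (2738 of all genes). The difference between the Geriatric-Young and the SAMP8-SAMR1 changes called 0 members (1.73% of all genes called). Here 2 members had an unadjusted p under 0.05, beside 5361 of all genes. By direction, higher and lower calls made up 1.58% and 2.61% of all genes in Geriatric against Young, 5.52% and 14.4% in Geriatric against Old, 1.2% and 0.24% in Old against Young, 0.222% and 0.228% in SAMP8 against SAMR1 cells, and 0.538% and 1.19% for the difference of changes. The split between higher and lower calls moves with the scaling: of the Geriatric-Old calls 27.7% were higher, and 46.9% after quantile normalization. The median change of the members was 0.07, 0.31, −0.35 and −0.02 in these 4 comparisons, beside −0.18, −0.22, 0.06 and 0.01 over all genes. With quantile normalization, which sets all arrays to 1 distribution and so holds such medians near 0 by construction, they were −0.04 for Geriatric against Young and 0.03 for Geriatric against Old cells. Whether the shift of Geriatric cells comes from the scaling was not tested. Relative to the median gene, Jag1 differed by 2.25 (Geriatric minus Young) and 2.52 (Geriatric minus Old), and Adam17 by 0.97 (Geriatric minus Old). The comparisons of Geriatric cells share their 2 Geriatric arrays. Of these, Geriatric 1 had 969 outlier spots, which were left out, against 94 (Young 2) to 255 (SAMP8 2) on the other arrays.

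**Figure D1:**
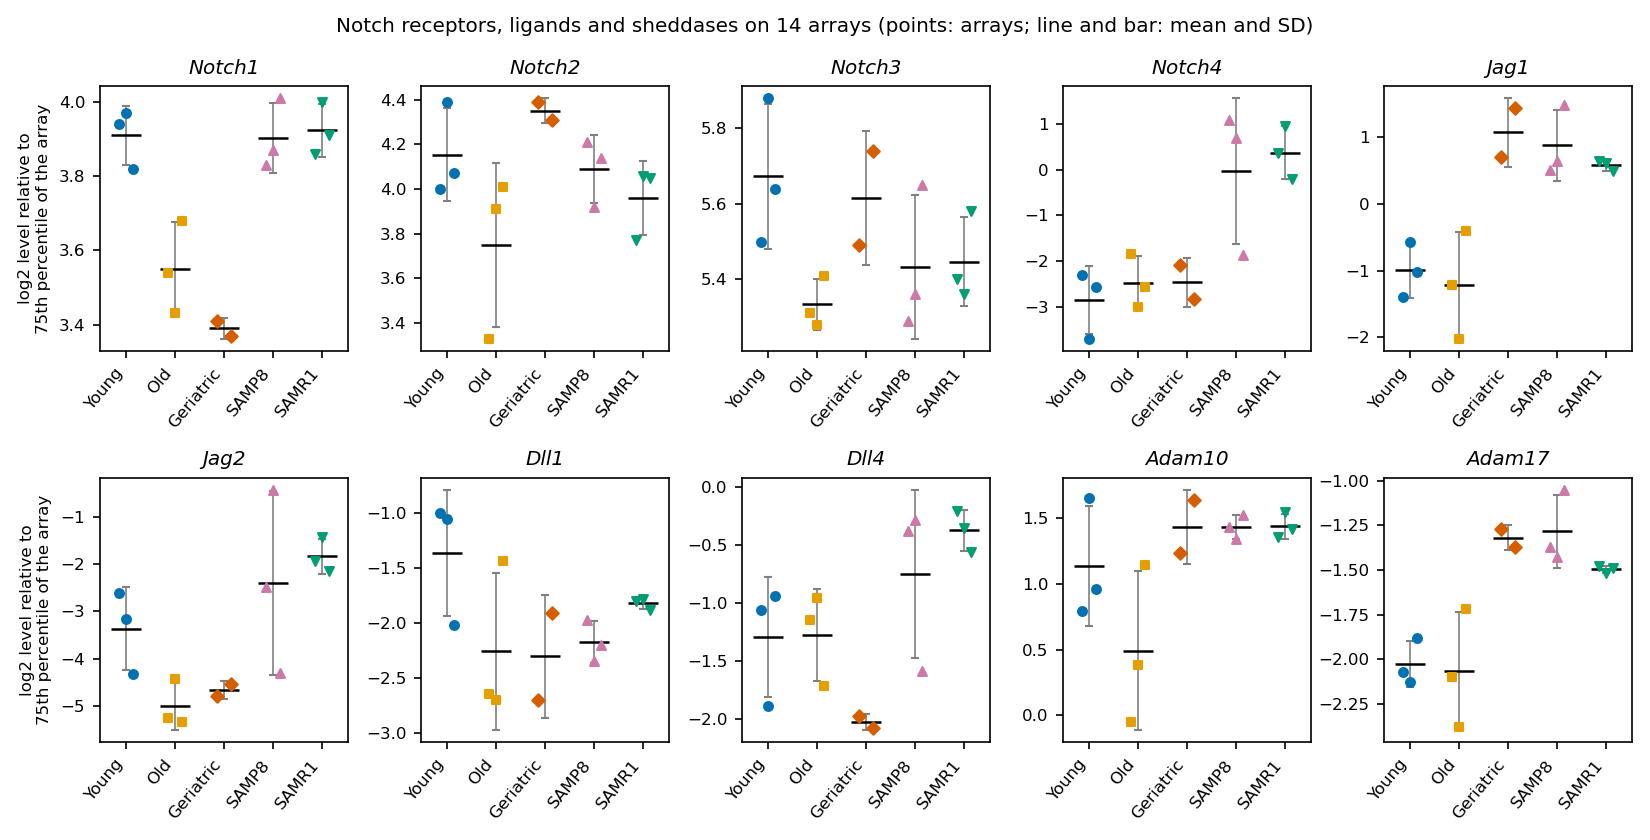
Levels of the 10 members (y axis, log2 relative to the 75th percentile of the array, brighter probe of each gene) in Young, Old, Geriatric, SAMP8 and SAMR1 samples (x axis). Points are single arrays and lines with bars are means and SD. The scales differ between panels: Notch3 spans 0.60 over the 14 arrays and Jag2 4.90. Jag1 and Adam17 lie higher on both Geriatric arrays than on any Young or Old array.

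Among the ligands, Jag1, which encodes Jagged1, showed the clearest change of any member. It read 0.71 and 1.44 on the Geriatric arrays, against −1.40, −0.57 and −1.02 on the Young and −1.22, −2.02 and −0.41 on the Old arrays. Both Geriatric arrays thus lay above all 6 younger C57BL/6 arrays, without overlap. The rise was 2.07 ± 0.45 relative to Young cells (SE, n = 2 against 3, a 4.20-fold higher signal, 95% interval 1.08 to 3.07, limma adjusted p = 0.0275) and 2.29 ± 0.45 relative to Old cells (4.90-fold, 1.30 to 3.29, limma adjusted p = 0.00625). In bulk RNA, more cells of a type that carries Jag1 and more Jag1 RNA per cell cannot be told apart.

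Old cells did not differ detectably from Young cells in Jag1 (−0.22 ± 0.41, 95% interval −1.11 to 0.67, limma adjusted p = 0.848). Jag1 was also high on the SAM arrays, at 0.51, 0.64 and 1.49 in SAMP8 and 0.65, 0.61 and 0.49 in SAMR1 cells, all of them above every Young and Old array. The SAMP8 and SAMR1 arrays overlapped (0.30 ± 0.41, 95% interval −0.59 to 1.18, limma adjusted p = 0.957). Jag1 was therefore high on the same 8 arrays that carry Y-linked transcripts and low on the 6 that do not. By mean log2 level, the leukocyte and muscle fibre marker lists divided the arrays in the same way. The mean log2 level of 8 measured leukocyte markers was −3.63 to −3.39 in Geriatric, −3.52 to −3.29 in SAMP8 and −3.68 to −3.19 in SAMR1 cells, against −2.73 to −1.99 in Young and −2.86 to −1.39 in Old cells. That of 8 muscle fibre markers was −3.13 to −2.70 in Geriatric, −3.08 to −2.71 in SAMP8 and −2.78 to −2.56 in SAMR1 cells, against −2.53 to −2.32 in Young and −2.25 to −1.71 in Old cells. In Geriatric against Old cells 1 leukocyte marker (Lyz2) and 1 fibre marker (Mylpf) fell. In the other lists 1 satellite cell marker rose, 1 mesenchymal marker rose and 1 fell, and 1 smooth muscle and pericyte marker fell. Of the endothelial markers 0 were called. Against Young cells 0 leukocyte and 0 fibre markers were called. There 1 mesenchymal and 1 smooth muscle and pericyte marker rose, and 1 of each list fell. Ptprc, which encodes the CD45 that the sort gated out, varied little, with group means between −2.07 (SAMR1) and −1.77 (Old). The summed linear level of the leukocyte markers did not divide the arrays. It was 6.51 to 9.02 in SAMP8 and 6.31 to 7.75 in SAMR1, against 7.08 to 10.2 in Young cells. By mean log2 level both lists were thus lower where Jag1 was higher, and their part in its level was not tested. The Geriatric-Young change exceeded the SAMP8-SAMR1 change by 1.78 ± 0.61, a difference that did not pass over all genes (limma adjusted p = 0.19).

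The Geriatric-Young call of Jag1 is less firm than the Geriatric-Old call. With the 2 slides as a block the rise was 1.70 relative to Young (limma adjusted p = 0.0729) and 2.11 relative to Old cells (limma adjusted p = 0.00692). Within slide 2, which holds both Geriatric arrays, 1 Young and 2 Old arrays, it was 1.64 (limma adjusted p = 0.52) and 1.89 (limma adjusted p = 0.112). With an array left out in turn the rise stayed between 1.71 and 2.43 relative to Young and between 1.89 and 2.70 relative to Old cells. The call was lost relative to Young cells without Geriatric 1, Geriatric 3, Young 1 or Young 3 (limma adjusted p = 0.0643, 0.195, 0.0752 and 0.0822), and relative to Old cells without Geriatric 3 (limma adjusted p = 0.0733).

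The 250 bases before the Jag1 start site in RefSeq (chr2:137116521-137116770, minus strand, GRCm38.p6) are printed because Jag1 was the member that rose in both comparisons. They are given 5′ to 3′.
Jag1 promoter: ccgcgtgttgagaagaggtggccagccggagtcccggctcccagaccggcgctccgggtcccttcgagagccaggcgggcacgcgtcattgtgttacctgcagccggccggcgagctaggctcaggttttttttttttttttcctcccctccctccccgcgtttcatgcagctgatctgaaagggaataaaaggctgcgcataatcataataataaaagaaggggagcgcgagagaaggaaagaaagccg
This window had a GC content of 57.2% and held neither TGGGAA, the core of the Rbpj motif, nor its 1-base extension GTGGGAA, on either strand. Across the 11 promoter windows of the 10 members TGGGAA was found in 0 (21.6% of 32851 RefSeq windows of this length hold it) and GTGGGAA, which contains TGGGAA, in 0 (5.42%). GGAAG, a core bound by ETS factors, was not found before Jag1 or Jag2 and was found in 6 of the 11 windows (64.1% of all windows). These are matches of letters in 1 short window.

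Notch4, Jag2 and Dll4 were the members that separated most of the SAM arrays from the C57BL/6 arrays. Notch4, the endothelial Notch receptor, read 1.08, 0.69 and −1.86 in SAMP8 and 0.36, 0.96 and −0.21 in SAMR1 cells, against −2.31, −3.70 and −2.56 in Young, −1.85, −3.00 and −2.56 in Old and −2.09 and −2.84 in Geriatric cells. SAMP8 3 thus sat beside the C57BL/6 arrays, and the other 5 SAM arrays lay above all of them. Jag2, a ligand of the Jagged type, read −2.49, −0.43 and −4.30 in SAMP8 and −1.93, −1.44 and −2.15 in SAMR1 cells, against −2.61, −3.16 and −4.33 in Young, −5.26, −4.42 and −5.33 in Old and −4.79 and −4.53 in Geriatric cells. The same SAMP8 array was low again, and the other 5 SAM arrays lay above every C57BL/6 array. Dll4, the Delta-like ligand of sprouting vessels, read −0.38, −0.28 and −1.59 in SAMP8 and −0.21, −0.35 and −0.56 in SAMR1 cells, against −1.06, −1.89 and −0.94 in Young, −1.15, −0.96 and −1.72 in Old and −1.98 and −2.08 in Geriatric cells. Here too SAMP8 3 alone among the SAM arrays fell within the C57BL/6 range. No test sets SAM against C57BL/6 cells, since strain and age differ between them.

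The endothelial marker list moved with these 3 genes. Its 12 of 12 measured markers (11 on Geriatric 1, where 1 spot was an outlier) had a summed linear level of 68.1, 75 and 18.3 on SAMP8 1, 2 and 3 and of 43.2 to 92.5 in SAMR1, against 11.5 to 18.5 in Young, 11.4 to 17.2 in Old and 17.8 to 19.2 in Geriatric cells. By this sum SAMP8 3 was again the SAM array within the C57BL/6 range. Pecam1, which encodes the CD31 that the sort gated out, read 0.61 on SAMP8 3, 2.39 to 3.8 in SAMR1 and −4.95 to 0.11 on C57BL/6 arrays. Cdh5, the cadherin of endothelial junctions, averaged −0.49 in SAMP8 and −0.16 in SAMR1 cells, against −5.10 in Young, −4.90 in Old and −3.78 in Geriatric cells. On SAMP8 3 it read −2.30, above the highest C57BL/6 level of −3.50 on Geriatric 3. Pecam1, Kdr and Tie1 were likewise above every C57BL/6 array on SAMP8 3, whereas Flt1 (−1.53) was not. Between 9 and 12 of the 12 markers were well above background on each array. Cdh5 was not on Young 2 and Old 2, Pecam1 not on Young 2, and Tie1 not on Young 1, Old 2 and Geriatric 1. Mural cell markers (10 of 10 measured, with 1 value missing on Geriatric 1) had mean log2 levels of 0.42 to 0.97 in SAMP8 and 0.86 to 1.12 in SAMR1, against −0.22 to 0.07 in Young, −0.12 to 0.22 in Old and −0.65 to −0.04 in Geriatric cells. Their summed linear level had another order, at 151 to 258 in SAMP8, 145 to 173 in SAMR1, 191 to 222 in Young, 195 to 225 in Old and 123 to 133 in Geriatric cells. The mean log2 level of 7 measured mesenchymal markers (of 8 listed) also set the SAM arrays apart, at 1.08 to 1.49 in SAMP8 and 1.15 to 1.17 in SAMR1, against 0.15 to 0.39 in Young, −0.16 to 0.58 in Old and 0.04 to 0.68 in Geriatric cells. Their summed linear level was at least 92.5 in SAMP8 and 62.6 to 78.9 in SAMR1, against 61 to 66.7 in Young, 47.7 to 74.1 in Old and 42 to 67.3 in Geriatric cells. The part of any of these cell types in the levels of Notch4, Jag2 and Dll4 was not tested. Jag1 did not follow the endothelial list: on SAMP8 3, where that list was lowest among the SAM arrays, it had its highest level of the 14 arrays, 1.49.

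**Figure D2:**
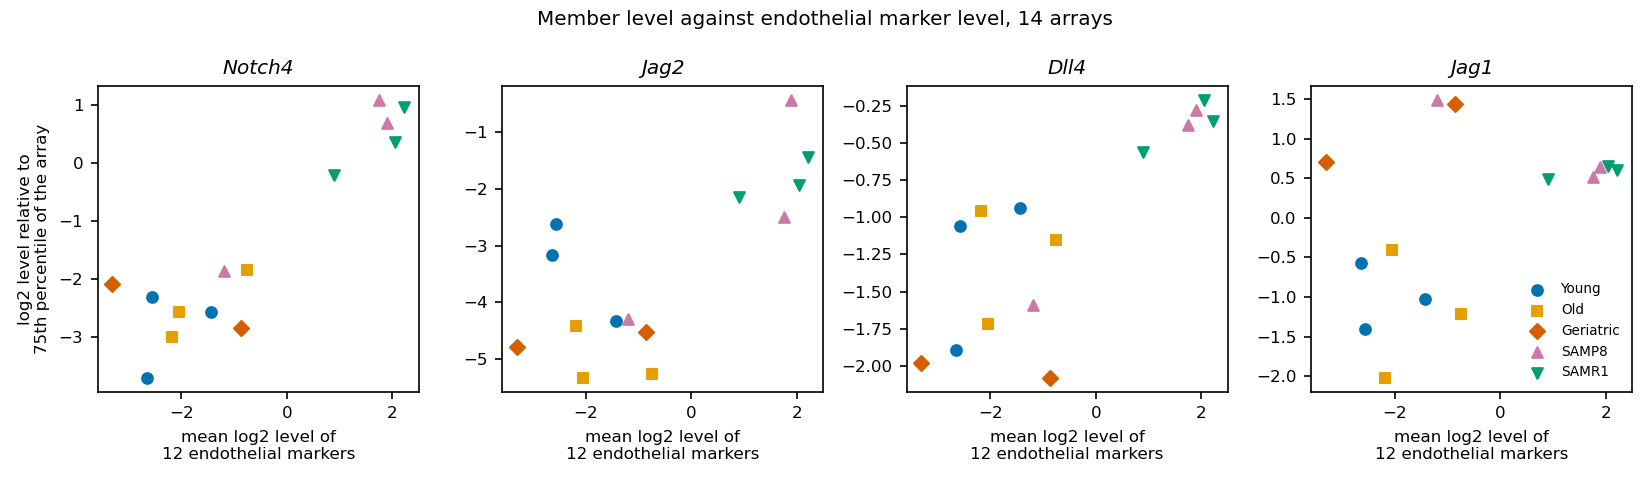
Levels of Notch4, Jag2, Dll4 and Jag1 (y axes, log2 relative to the 75th percentile of the array) against the mean log2 level of 12 endothelial markers on the same array (x axis), with 1 point per array and a marker per group. For Notch4, Jag2 and Dll4 the 5 points with a marker mean of 0.90 or above are SAMP8 1 and 2 and the 3 SAMR1 arrays, and they are the highest 5. Jag1 is at 0.49 or above on all Geriatric and SAM arrays whatever their marker mean.

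Between SAMP8 and SAMR1 cells the 3 genes did not pass. The change was −0.40 for Notch4 (95% interval −1.91 to 1.11, limma adjusted p = 0.976), −0.56 for Jag2 (−2.25 to 1.13, limma adjusted p = 0.957) and −0.38 for Dll4 (−1.18 to 0.43, limma adjusted p = 0.911). Without SAMP8 3 these values turned to 0.51, 0.38 and 0.04, so their sign rests on that array, and they also turned within slide 1 (0.61, 1.61 and 0.11). The intervals for Notch4 and Jag2 hold a doubling in either direction, and the SD over the SAMP8 arrays was 1.59 for Notch4 and 1.94 for Jag2.

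Within C57BL/6 cells, Jag2 was lower in Old than in Young cells on every array (−1.63 ± 0.77, 95% interval −3.33 to 0.06, limma adjusted p = 0.313), and lower in Geriatric than in Young cells on every array (−1.30 ± 0.86, limma adjusted p = 0.392), but neither difference passed. Because Jag2 on Old 3 was not well above background, its level there may be a bound. The size of the Old-Young change of Jag2 moved with the processing. It was −0.61 with a normexp background correction, −0.86 with the authors' deposited values and −2.43 with quantile normalization. Dll4 was lower on both Geriatric arrays than on any Young or Old array (−0.73 ± 0.41 and −0.75 ± 0.41, limma adjusted p = 0.317 and 0.21). Notch4 differed by 0.39, 0.40 and 0.00 in Old minus Young, Geriatric minus Young and Geriatric minus Old cells, with overlapping arrays in each. Non-overlap is common here: of all genes, 8.56% lay lower on every Old than on every Young array, 28.6% lower on every Geriatric than on every Young array, and 35.0% lower on every Geriatric than on every Old array.

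The promoter windows of these 3 genes are shown because their levels moved together over the SAM arrays (250 bases before the RefSeq start, GRCm38.p6, 5′ to 3′, GGAAG or its complement CTTCC in capitals).
Notch4 promoter (chr17:34564045-34564294, plus strand): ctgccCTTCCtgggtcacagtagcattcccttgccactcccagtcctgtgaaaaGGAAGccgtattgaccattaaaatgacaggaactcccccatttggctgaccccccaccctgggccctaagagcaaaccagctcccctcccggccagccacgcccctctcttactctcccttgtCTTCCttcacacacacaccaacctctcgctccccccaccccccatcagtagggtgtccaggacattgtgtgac
Dll4 promoter (chr2:119325534-119325783, plus strand): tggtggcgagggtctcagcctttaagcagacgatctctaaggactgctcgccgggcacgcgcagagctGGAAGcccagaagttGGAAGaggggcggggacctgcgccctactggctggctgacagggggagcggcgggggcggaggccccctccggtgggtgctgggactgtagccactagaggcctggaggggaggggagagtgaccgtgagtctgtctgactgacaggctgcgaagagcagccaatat
Jag2 promoter (chr12:112929496-112929745, minus strand): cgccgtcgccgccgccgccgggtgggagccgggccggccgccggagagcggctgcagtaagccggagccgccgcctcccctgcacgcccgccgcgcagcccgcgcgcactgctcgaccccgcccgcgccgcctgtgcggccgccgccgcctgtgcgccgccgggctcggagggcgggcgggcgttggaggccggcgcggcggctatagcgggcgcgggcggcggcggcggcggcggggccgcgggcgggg
Notch4 held 3 matches, Dll4 2 and Jag2 0. GC content was 58.4% for Notch4, 65.6% for Dll4 and 87.2% for Jag2, so windows of genes with similar levels over the SAM arrays differed in composition.

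Dll1, the Delta-like ligand known from the activation and renewal of satellite cells, was the other ligand. It read −2.65, −2.70 and −1.43 in Old and −2.70 and −1.91 in Geriatric cells, against −1.0, −1.05 and −2.02 in Young cells. The groups overlapped through Young 3 and Old 3. The differences from Young cells were −0.90 ± 0.38 for Old (95% interval −1.73 to −0.08, limma adjusted p = 0.251) and −0.95 ± 0.42 for Geriatric cells (−1.87 to −0.03, limma adjusted p = 0.217), and neither passed over all genes. In SAMP8 cells Dll1 read −1.97, −2.35 and −2.20, all below the −1.80, −1.78 and −1.88 of SAMR1 cells (−0.35 ± 0.38), which did not pass either (limma adjusted p = 0.93). Of all genes, 5.37% lay lower on every SAMP8 than on every SAMR1 array, and Dll1 was the 1 member that did.

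Notch1, the receptor most studied in satellite cells, varied little, by 0.65 over the 14 arrays, yet its brighter probe separated the ages. It read 3.94, 3.97 and 3.82 in Young, 3.54, 3.43 and 3.68 in Old and 3.41 and 3.37 in Geriatric cells. The 3 ages did not overlap, with Young highest and Geriatric lowest. SAMP8 (3.83, 3.87 and 4.01) and SAMR1 cells (3.86, 4.0 and 3.91) read like Young cells, and all 6 lay above every Old and Geriatric array. The differences from Young cells were −0.36 ± 0.15 for Old (95% interval −0.69 to −0.03, limma adjusted p = 0.255) and −0.52 ± 0.17 for Geriatric cells (−0.89 to −0.15, a 1.44-fold lower signal, limma adjusted p = 0.11), and −0.16 ± 0.17 for Geriatric against Old cells (limma adjusted p = 0.509). None passed. Old minus Young was −0.45 within slide 1 and −0.36 within slide 2, and Geriatric minus Young was −0.58 within slide 2. Geriatric minus Young shrank to −0.35 with quantile normalization, −0.28 with the authors' values and −0.27 as the mean of both probes.

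The dimmer Notch1 probe gave another pattern. It read 1.42, 0.94 and 1.59 in Old and 1.68 and 1.88 in Geriatric cells, against 1.58, 2.23 and 1.58 in Young cells. Both older groups overlapped the Young arrays. Its differences were −0.48 ± 0.24 (Old minus Young, limma adjusted p = 0.341 over all probes), −0.02 ± 0.26 (Geriatric minus Young, 0.975) and 0.46 ± 0.26 (Geriatric minus Old, 0.239). The lower Geriatric level at 1 site was thus not seen at the other, which lies further along the transcript. Even the direction for Geriatric against Old cells differs between them, as it does with the authors' own values for the brighter probe (0.05).

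Notch2, the receptor best known beside Notch1 for holding quiescence, also differed between its probes. The brighter probe had means of 3.75 ± 0.37 in Old and 4.35 ± 0.06 in Geriatric cells, against 4.15 ± 0.21 in Young cells (SD, n = 3, 2 and 3). It read 4.39 and 4.31 on the Geriatric arrays, against 3.33, 3.91 and 4.01 on the Old and 4.0, 4.39 and 4.07 on the Young arrays. The Geriatric arrays lay above all Old arrays and overlapped the Young arrays. The Geriatric-Old difference was 0.60 ± 0.24 (95% interval 0.08 to 1.12, limma adjusted p = 0.0952). It passed under 2 other scalings, quantile normalization (0.82, limma adjusted p = 0.0294) and the authors' values (0.69, limma adjusted p = 0.0281). The dimmer probe went the other way, at 1.88 and 2.02 in Geriatric against 2.22, 2.10 and 2.50 in Old cells (−0.32 ± 0.22, limma adjusted p = 0.316 over all probes). No direction for Notch2 can therefore be given. In SAM cells the dimmer probe lay higher on every SAMP8 array (2.16, 1.75 and 1.78) than on the SAMR1 arrays (1.64, 1.30 and 1.63), by 0.37 ± 0.20 (limma adjusted p = 0.666), and the brighter probe overlapped (0.12 ± 0.21, limma adjusted p = 0.976).

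**Figure D3:**
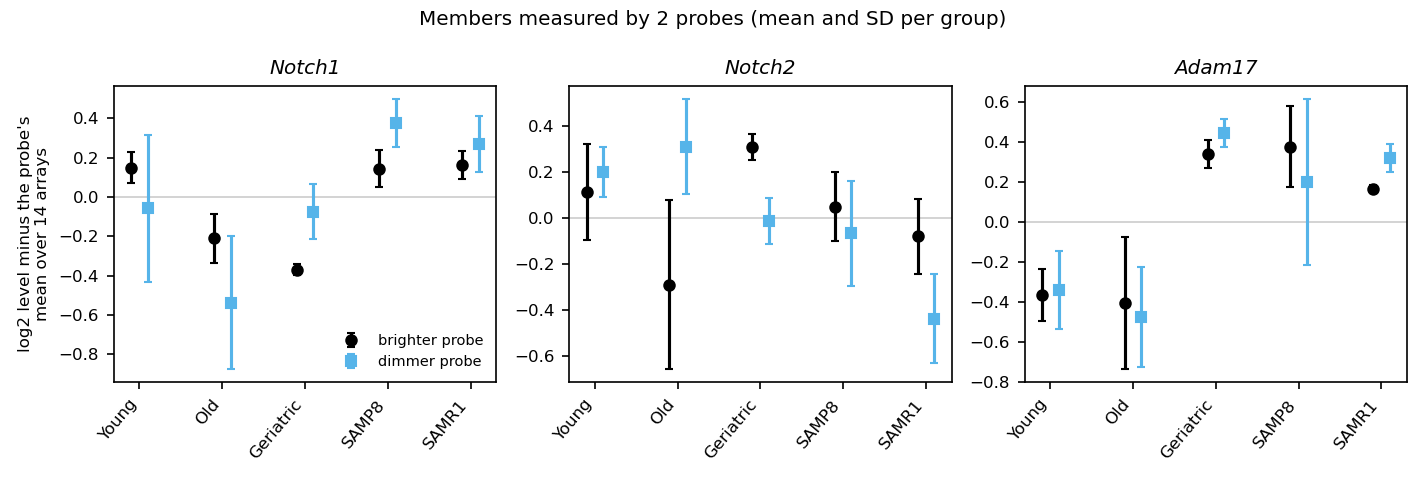
Group means with SD of both probes of Notch1, Notch2 and Adam17 (y axis, log2 level minus the mean of that probe over 14 arrays) in Young, Old, Geriatric, SAMP8 and SAMR1 samples (x axis, n = 3, 3, 2, 3 and 3). The Notch1 probes part most in Old and Geriatric cells and the Notch2 probes in Old, Geriatric and SAMR1 cells. The Adam17 probes, which share 52 bases, are both higher in Geriatric than in Young and Old cells.

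Notch3, the receptor known as a brake on satellite cell proliferation, had the narrowest range of the 10 members. It read 5.31, 5.28 and 5.41 in Old against 5.50, 5.88 and 5.64 in Young cells. All Old arrays lay below the Young arrays (−0.34 ± 0.18, 95% interval −0.73 to 0.05, limma adjusted p = 0.361). The Geriatric arrays (5.49 and 5.74) overlapped the Young arrays and lay above the Old arrays (0.29 ± 0.20, limma adjusted p = 0.314), and with the authors' values the Geriatric-Old difference was 0.71 (limma adjusted p = 0.0325). SAMP8 (5.29, 5.36 and 5.65) and SAMR1 cells (5.40, 5.36 and 5.58) overlapped (−0.01, 95% interval −0.40 to 0.37). In Old against Young cells 3 members (Notch1, Notch3 and Jag2) lay lower on every array and 0 higher, beside 8.56% and 12.9% of all genes.

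Of the sheddases, Adam17, which cleaves many membrane proteins besides Notch, rose in Geriatric relative to Old cells. It read −1.27 and −1.37 in Geriatric cells, against −2.10, −2.38 and −1.72 in Old and −2.07, −2.13 and −1.88 in Young cells. Both Geriatric arrays lay above all 6 younger arrays. The rise relative to Old cells was 0.74 ± 0.22 (1.67-fold, 95% interval 0.26 to 1.22, limma adjusted p = 0.0352), and the difference from Young cells was 0.71 ± 0.22 (1.63-fold, 0.23 to 1.19, limma adjusted p = 0.0999). The dimmer probe read −1.34 and −1.24 in Geriatric cells, against −2.04, −2.50 and −2.10 in Old and −2.07, −2.28 and −1.89 in Young cells, again without overlap. It gave 0.93 ± 0.26 (limma adjusted p = 0.0312 over all probes) and 0.80 ± 0.26 (0.121). Relative to Old cells the rise was 0.70 with slide as a block (limma adjusted p = 0.0381) and 0.59 within slide 2 (limma adjusted p = 0.261). Leaving out an array in turn kept it between 0.59 and 0.92, with the call lost in 6 of 14 cases (without Geriatric 1 or 3, Old 1 or 2, or SAMR1 1 or 3). Like Jag1, Adam17 was higher on the SAMP8 (−1.37, −1.43 and −1.05) and SAMR1 arrays (−1.48, −1.52 and −1.49) than on every Young and Old array, so on this probe it too follows the division by sex-linked transcripts. On the dimmer probe SAMP8 2 read −1.98, below Young 3 at −1.89, and the division did not hold. All SAMP8 arrays lay above the SAMR1 arrays (0.21 ± 0.20, limma adjusted p = 0.899, beside 7.75% of all genes), but the sign turned with normexp (−0.18) and the authors' values (−0.21). On the dimmer probe the SAM groups overlapped (−0.12).

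Adam10, the main protease for ligand-induced Notch cleavage, read 1.23 and 1.63 in Geriatric cells, against −0.05, 0.38 and 1.14 in Old and 0.79, 1.65 and 0.96 in Young cells. Geriatric arrays lay above all Old arrays and among the Young arrays. The Geriatric-Old difference was 0.94 ± 0.34 (1.92-fold, 95% interval 0.20 to 1.68, limma adjusted p = 0.0722). It passed with a normexp background correction (0.94, limma adjusted p = 0.0297), with the authors' values (0.94, limma adjusted p = 0.0357) and without Old 3 (1.26, limma adjusted p = 0.0145). Old minus Young was −0.64 ± 0.30 (limma adjusted p = 0.313). SAMP8 (1.43, 1.34 and 1.52) and SAMR1 cells (1.35, 1.54 and 1.41) all lay between 1.34 and 1.54, and their difference of 0.00 had a 95% interval of −0.66 to 0.67. Counting all members, 5 lay higher on every Geriatric than on every Old array (Notch2, Notch3, Jag1, Adam10 and Adam17, beside 19.6% of all genes) and 2 lower (Notch1 and Dll4, beside 35.0%). Against Young cells 2 lay higher (Jag1 and Adam17, beside 15.1%) and 3 lower (Notch1, Jag2 and Dll4, beside 28.6%).

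**Figure D4:**
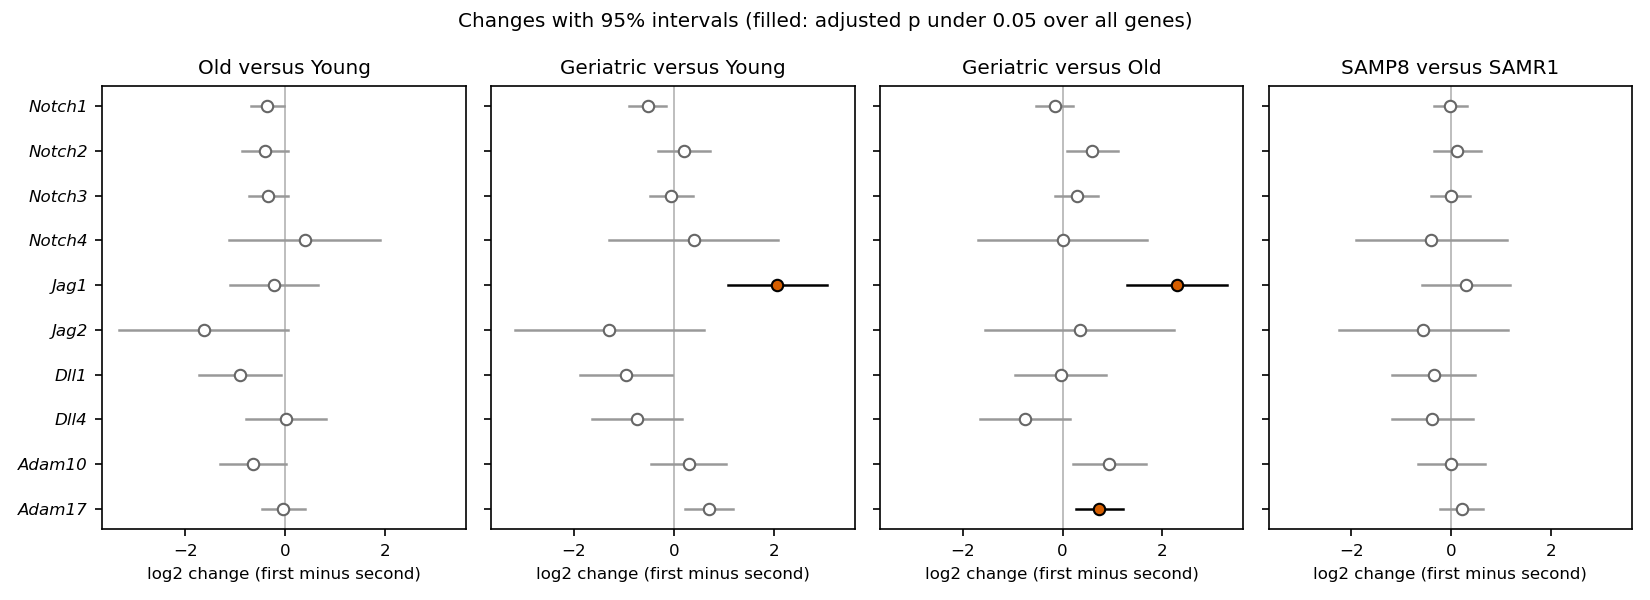
Log2 changes of the 10 members with 95% intervals (x axis, first group minus second) in the 4 comparisons. Filled points passed an adjusted p under 0.05 over all genes: Jag1 in Geriatric against Young (2.07) and Old (2.29) cells and Adam17 in Geriatric against Old cells (0.74). The intervals of Notch4 and Jag2 are the widest in each panel and those of Notch1 among the narrowest.

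The rest of the pathway was read from 6 lists of 53 genes, of which 51 were measured. Relative to Old cells 6 of the 51 rose in Geriatric cells and 0 fell, with a median change of 0.26 beside −0.22 over all genes. Of all genes 19.9% were called in this comparison, made up of 5.52% higher and 14.4% lower in Geriatric cells. In this fit the 6 of 51 are a smaller share than the 19.9%, and all 6 were higher. The count depends on the processing. It was 10 with the authors' values (6341 of all genes called) and 10 with normexp (9346 of all genes called). With quantile normalization it was 9, with slide as a block 9, with the replicate block 6 and with only the 2 groups in the fit 2. Whether the pathway differs from all genes in direction was not tested. Of 8 target genes of Notch, 3 rose: Hes1 by 2.21 ± 0.24 (limma adjusted p = 0.000291), Hey1 by 1.67 ± 0.27 (limma adjusted p = 0.0021) and Heyl by 1.29 ± 0.29 (limma adjusted p = 0.0115), all transcriptional repressors. The 8 targets did not move as a body, with a median of −0.14 and values of −0.63 for Hes5 (limma adjusted p = 0.112) and −0.39 for Hes7 (limma adjusted p = 0.423). In the list of endocytosis and ubiquitination genes 2 of 14 rose, the ubiquitin ligases Itch (1.08 ± 0.26, limma adjusted p = 0.0162) and Dtx3l (1.06 ± 0.29, limma adjusted p = 0.0266). In the nuclear complex 1 of 9 rose, the coactivator Maml1 (1.07 ± 0.27, limma adjusted p = 0.0189), while Rbpj had a change of 0.15 (limma adjusted p = 0.695). None of 6 γ-secretase genes, 7 genes of receptor glycosylation and maturation and 7 non-canonical or inhibitory ligands passed. Hes1 and Hey1 kept the call whichever array was left out, while Heyl, Itch, Dtx3l and Maml1 lost it without Geriatric 1 or Geriatric 3 (limma adjusted p between 0.0532 for Heyl and 0.135 for Dtx3l). Itch, Dtx3l and Maml1 also lost it without Old 1, and Dtx3l and Maml1 without Old 2. With normexp the rise of Maml1 was 0.57. Within slide 2 and with only the 2 groups in the fit these 4 did not pass.

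Relative to Young cells, 1 of the 51 rose in Geriatric cells, Hes1 (1.64 ± 0.24, limma adjusted p = 0.00373), and 0 fell, beside 4.19% of all genes called and 1.58% called higher. Hes1 read 1.77 and 2.15 in Geriatric cells, against 0.32, 0.50 and 0.14 in Young and −0.32, −0.27 and −0.15 in Old cells. It read 2.09, 1.77 and 2.50 in SAMP8 and 1.59, 1.64 and 1.33 in SAMR1 cells, so that, as for Jag1, the Geriatric and SAM arrays were all above the Young and Old arrays. Hes1 passed against Young and Old cells whichever array was left out (1.45 to 1.83 and 2.02 to 2.40), but not against Young cells within slide 2 (1.46, limma adjusted p = 0.28) or with only the 2 groups in the fit (limma adjusted p = 0.0581). In Old against Young cells 1 of the 51 rose, the coactivator Maml2 (0.82 ± 0.18, limma adjusted p = 0.0477, beside 1.44% of all genes called), a call that was lost with any of the 14 arrays left out. Hey1 was just outside the threshold there (−1.08 ± 0.24, limma adjusted p = 0.054), and 0 fell. In SAMP8 against SAMR1 cells 0 of the 51 passed with limma, and 0 passed in the difference between the Geriatric-Young and SAMP8-SAMR1 changes.

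**Figure D5:**
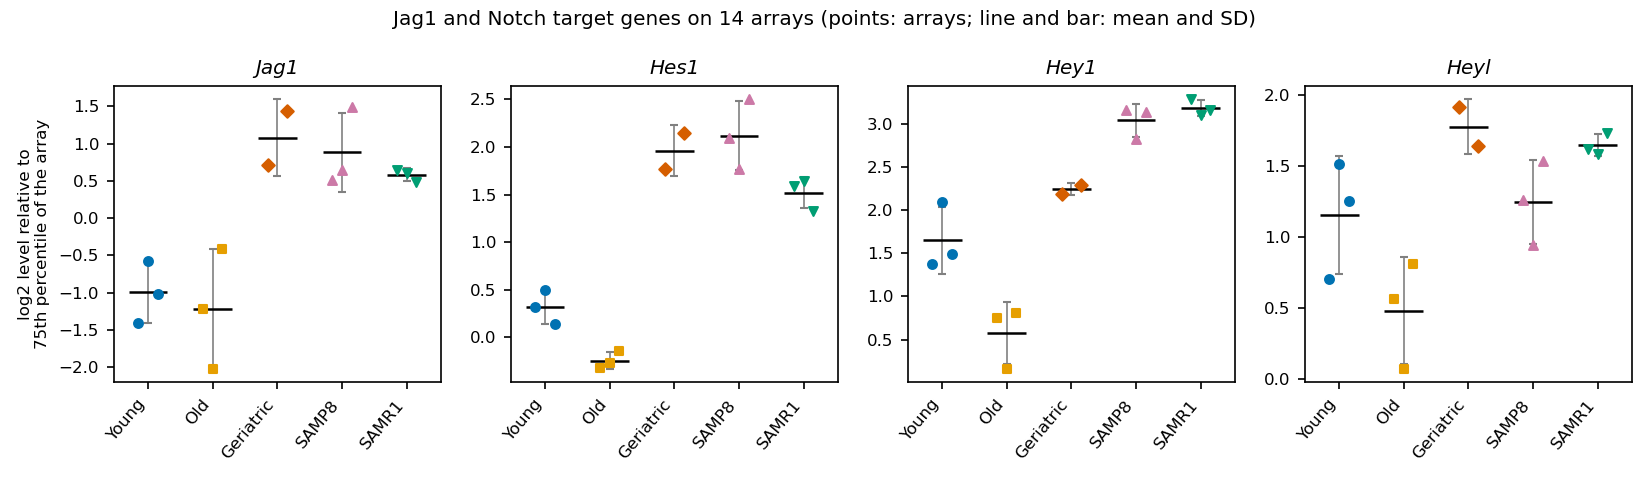
Levels of the ligand gene Jag1 and of the target genes Hes1, Hey1 and Heyl (y axes, log2 relative to the 75th percentile of the array) in Young, Old, Geriatric, SAMP8 and SAMR1 samples (x axis). Points are arrays and lines with bars are means and SD. Jag1 and Hes1 are above every Young and Old array on all Geriatric and SAM arrays, while Heyl overlaps between Young and SAM cells.

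Genes with the array pattern closest to a member were sought for the 3 members with the widest range of group means, by the root mean square difference of levels centred over the 14 arrays, among 16851 genes with a symbol. For Jag1 these were Icosl (0.35), Setbp1 (0.38) and Hes1 (0.38), beside an SD of Jag1 itself of 1.09. Each had a higher mean in Geriatric, SAMP8 and SAMR1 than in Young and Old cells. For Notch4 (SD 1.64) they were Kcna5 (0.46), Efr3b (0.49) and Gpihbp1 (0.53), the last of which is known as the anchor of lipoprotein lipase on capillary endothelium. For Jag2 (SD 1.54) they were Clec1a (0.63), Itpkb (0.76) and Jak3 (0.76), a looser likeness. Gpihbp1 averaged 0.84 in SAMP8 and 1.85 in SAMR1 cells, against −1.64 in Young, −1.06 in Old and −1.90 in Geriatric cells. The 14 points share groups, strains and slides, so these likenesses describe the arrays only.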

How the data were processed

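Scanner files deposited by the authors hold processed signals, linear intensity values that, per the file headers, Agilent Feature Extraction (version 10.7.3.1) had background-subtracted. The authors' deposited log2 table equalled normexp (offset 50) plus quantile normalization to within 0.000117, and served as an alternative. From log2 signals the 75th percentile of the array (55681 probes) was subtracted, after control and outlier spots were removed and replicate spots averaged. Probes were kept (49927) if 2 or more arrays within 1 group were well above background, and a gene was its brightest kept probe (32871 genes). Tests used lmFit and eBayes of limma 3.58.1 under R 4.3.3 (1 coefficient per group, 14 arrays, 9 residual degrees of freedom, two-sided, Benjamini-Hochberg), checked on simulated data. There, 16% of log2 changes of 1 were called for Old against Young and 8% for Geriatric against Young. For changes of 2 these shares were 48% and 44%, and for changes of 3 they were 86% and 78%. Changes of the size of most member differences would thus often be missed. The fit pools the spread over groups, so that of the 2 Geriatric arrays is largely borrowed. The number of arrays limits the precision. Slides (6 and 8 arrays) were read from array identifiers in the files. No replicate pair was near identical (highest r between arrays 0.9765). Same-numbered replicates did not deviate together (r from −0.26 to 0.16), so numbers were not treated as pairs. The rule for named genes takes all members, up to 3 passing genes per pathway list and comparison (up to 2 with the smallest p where none passed), sex-linked and sort genes and 3 look-alikes per chosen member; not all are printed. Cdh5, Hes5, Hes7 and Rbpj were added after their values were seen. Kdr, Tie1, Flt1, Lyz2 and Mylpf, taken from the marker lists, are also named outside this rule. Members and lists were chosen with earlier results of these data known.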

Additional observations from a re-analysis of the deposited data

How the results depend on the processing

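Alternatives changed the background correction, normalization, dim-probe filter, probe rule, slide, replicate number, samples in the fit, and the arrays, 1 at a time, except that the authors' values changed background correction and normalization together. The cause of each change below was not tested, apart from fewer arrays where arrays were left out or only some were used. Within slide 1 no Geriatric array exists, so those comparisons were not run there.

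Over all genes, 472 were called in Old against Young cells, 1040 with normexp, 777 with the authors' values, 729 with slide as a block, 237 with the replicate block, 43 with only the 2 groups in the fit, 0 within slide 1 and 0 within slide 2, and 74 to 791 with an array left out (fewest without Old 1, most without Old 3). In Geriatric against Young cells 1377 were called, 862 with slide as a block, 869 with the replicate block, 426 with only the 2 groups, 2 within slide 2, and 615 to 1542 with an array left out. In Geriatric against Old cells 6557 were called, 3058 with only the 2 groups, 1558 within slide 2, and 2209 to 7271 with an array left out. In SAMP8 against SAMR1 cells 148 were called, 264 with normexp, 229 with the authors' values, 47 with only the 2 groups, 0 within either slide, and 57 to 251 with an array left out. For the difference of changes 568 were called, 892 with normexp, 349 with the replicate block, 0 within slide 2, and 321 to 775 with an array left out. The share of higher calls was 83.3% for Old against Young (67.8% with quantile normalization), 37.7% for Geriatric against Young (49.7% with the authors' values) and 27.7% for Geriatric against Old cells (46.9% with quantile normalization, 42.8% with the authors' values). For SAMP8 against SAMR1 it was 49.3% (59.8% with normexp), and for the difference of changes 31.2% (47.1% with the authors' values).

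Of members, 1 was called in Geriatric against Young cells, and 0 with slide as a block, within slide 2 or with only the 2 groups (Jag1 2.07, limma adjusted p = 0.08), and 0 to 1 with an array left out. In Geriatric against Old cells 2 were called, 5 with the authors' values (Notch2, Notch3 and Adam10 beside Jag1 and Adam17), 1 with the replicate block, 0 within slide 2 and 0 with only the 2 groups (limma adjusted p = 0.06 for Jag1 and 0.157 for Adam17), and 0 to 3 with an array left out. With the replicate block Jag1 kept both calls (limma adjusted p = 0.0428 and 0.0109) and Adam17 lost its own (0.67, limma adjusted p = 0.0677). Jag1 and Adam17 kept their direction in Geriatric cells in all 25 alternatives of each comparison.

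Signs that turned were those of changes that had not passed. In Old minus Young cells Dll4 (0.02) was −0.01 with normexp, −0.10 with quantile normalization and −0.11 with the authors' values, Notch4 −0.56 within slide 1 and Adam17 0.22 within slide 2. With an array left out Dll4 ranged from −0.28 to 0.24, Notch4 from −0.03 to 0.67, Adam17 from −0.21 to 0.12 and Jag1 from −0.62 to 0.18. In Geriatric minus Young cells Notch3 was 0.32 with quantile normalization and 0.35 with the authors' values, Notch2 −0.01 as the mean of its probes and −0.04 within slide 2, and Adam10 −0.22 within slide 2. With an array left out Notch3 ranged from −0.18 to 0.07 and Notch4 from −0.02 to 0.77. In Geriatric minus Old cells Notch4 was −0.15 with normexp, −0.26 within slide 2 and 0.00 with the replicate block, Jag2 −0.18 with normexp, Dll1 0.31 with quantile normalization and 0.13 with the authors' values, and Notch1 0.05 with the authors' values and 0.15 as the mean of its probes. With an array left out Notch4 ranged from −0.37 to 0.38 and Dll1 from −0.44 to 0.37. In SAMP8 minus SAMR1 cells Adam10 was −0.06 with normexp, −0.01 with quantile normalization, −0.06 with the authors' values, −0.10 with the slide block, −0.04 within slide 1 and −0.06 within slide 2. Adam17 was −0.18 with normexp and −0.21 with the authors' values, Notch1 0.04 as the mean of its probes, Notch3 0.11 within slide 2, and Notch4, Jag2 and Dll4 0.61, 1.61 and 0.11 within slide 1. With an array left out Adam10 ranged from −0.05 to 0.05, Notch1 from −0.07 to 0.02, Notch3 from −0.12 to 0.06, Notch4 from −0.95 to 0.51, Jag1 from −0.01 to 0.48, Jag2 from −1.55 to 0.38 and Dll4 from −0.61 to 0.04.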
